A study of Danio rerio with 2 samples.

Results

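The cells described here are the sorted zebrafish neutrophils with the largest share of lyz transcripts and no detected transcript of the replication genes used to exclude cycling cells. Members were chosen from the library of LysC+ neutrophils as barcodes with at least 500 detected genes, under 10% mitochondrial UMIs, lyz at 8% or more of all UMIs, 0 UMIs of mcm2, mcm3, mcm5, mcm6, mki67 and top2a, and fewer than 3 UMIs of mmp9. Of the 16899 sorted barcodes that passed the limits on genes and mitochondrial UMIs, 855 met the rule (5.06%, exact 95% interval 4.73 to 5.40), among 25212 passing barcodes in both libraries of the series.

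Kidney marrow came from 2 male adult fish, 6 months old, that carried Tg(lysC:CFPNTR), in which lysC regulatory sequence drives a fusion of CFP and nitroreductase, and Tg(BACmmp9:Citrine-CAAX), in which an mmp9 BAC drives membrane Citrine. Live cells positive for LysC:CFP and with no (NO), intermediate (INT) or high (HI) Citrine made up the sorted library, and live whole kidney marrow (WKM) of the same fish made up the other, with 1 library each of 58772890 and 45939863 UMIs. The portions were marked with lipid-anchored MULTI-seq barcodes (2 µM, 5 min on ice) and pooled. The counts analysed here carry no MULTI-seq barcode, so a cell could not be assigned to a fish or to its Mmp9 gate, and everything said of one library or the other rests on a single library.

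Neutrophils of the zebrafish form in the kidney marrow, the counterpart of mammalian bone marrow. Precursors divide, make granule proteins in the endoplasmic reticulum (ER), leave the cell cycle, and then switch on receptors, effectors and late granule proteins before release. lyz encodes lysozyme, a bactericidal granule enzyme whose transcript is abundant in zebrafish neutrophils, the mcm genes encode the helicase loaded on DNA for replication, mki67 and top2a mark dividing cells, and mmp9 encodes gelatinase B, a late granule protease. gadd45ga encodes a stress-induced protein of the Gadd45 family, which in mammals binds cell cycle kinases and the MAP kinase kinase kinase MAP3K4. chka encodes choline kinase alpha, which takes the first step of phosphatidylcholine synthesis.

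Members held 4518601 UMIs in all, a median of 5161 UMIs per cell (quartiles 3946 and 6526, range 923 to 15693) and a median of 1274 detected genes. The other 16044 passing sorted cells had a median of 2272 UMIs. lyz took a median of 10.7% of a member's UMIs (quartiles 9.22 and 13.1%, maximum 19.9%) against 2.66% in the other cells, and mitochondrial UMIs took 0.977% against 1.67%. lyz, the mcm genes, mki67, top2a and mmp9 chose the cells, so their values are given as a description. The limit fell inside a continuous distribution, since 187 members had lyz at 8 to 9% and 233 cells that met every other limit had lyz at 7 to 8%.

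**Figure D1:**
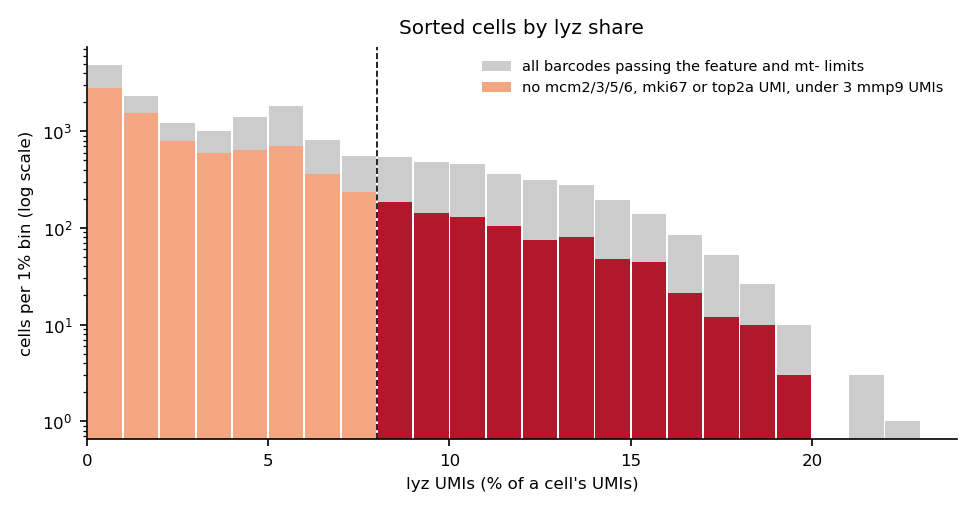
Number of sorted cells (log axis) by the share of lyz among all UMIs, in bins of 1%. Grey bars are all 16899 passing sorted cells, coloured bars are cells that met every limit other than that on lyz, and red bars right of the dashed line at 8% are the 855 members. The bars show no gap at the limit.

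Of 2934 passing sorted cells with lyz at 8% or more, 1618 had a UMI of an mcm gene of the rule, 667 had a UMI of mki67 or top2a, and 228 had 3 or more UMIs of mmp9. A single mcm UMI was the only reason why 260 of them were not members. The share of lyz-rich cells with no mcm UMI was 68.6% among those with under 2000 UMIs (81 of 118 cells, 59.5 to 76.9%) and 35.0% among those with 8000 or more (32.0 to 38.0%), so shallow cells passed this limit more often. A UMI of mcm4, mcm7 or pcna, replication genes outside the rule, was present in 337 of the 855 members. Among members, 747 had no mmp9 UMI, 80 had 1 and 28 had 2. "Without replication transcripts" here means no detected UMI of the genes of the rule and not a state of the cycle.

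Scrublet, which scores barcodes by their likeness to simulated doublets, called 53 members (6.20%, 4.68 to 8.03) and 10.9% of the other sorted cells. It called 10.6% of the sorted and 1.47% of the WKM library, and whether doublets contribute to any level below was not tested beyond the recount without called barcodes. In all, 62 barcode sequences occurred in both libraries and 3 of them belonged to members, none of which matched a WKM cell chosen by the same rule.

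The label of neutrophils was checked against markers. The neutrophil markers lyz and mmp9, which chose the cells, were left out. All 9 other neutrophil markers in the files were detected. They summed to 105821 CPM (UMIs per 1000000 UMIs of genes other than lyz) against 80768 in the other sorted cells. lect2l, a leukocyte-derived chemotaxin, stood at 63598 CPM, srgn, the granule proteoglycan serglycin, at 16939, npsn, an astacin-like protease, at 10044, cpa5, a carboxypeptidase, at 7066, and mpx, the neutrophil myeloperoxidase, at 3005. The sum was led by lect2l, with 253903 of 422470 UMIs, and not every marker was higher in members. ncf1, cfl1l and cebpa were lower, at 2392, 812 and 1886 CPM against 3812, 1236 and 2246 in the other sorted cells. mpx stood close, at 3067 CPM in the other sorted cells. Levels are UMIs counted at transcript ends, and levels of different genes are not compared.

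Markers of other marrow cells were low or shared. Erythroid markers summed to 35.1 CPM (9 of 13 detected) against 312 in the other sorted cells, and to 22850 CPM in WKM cells chosen by the same rule. Of 14 monocyte or macrophage markers 6 were detected, at 157 CPM against 318, of which spi1a, a myeloid transcription factor, gave 511 of 625 UMIs, while mpeg1.1, mpeg1.2, mfap4, marco, csf1ra, c1qa, c1qc and irf8 were at 0. HSPC markers summed to 331 CPM against 249.7, of which myb, a progenitor transcription factor also used in neutrophil precursors, gave 1014 of 1321 UMIs, while tal1 and gfi1aa were at 0. B cell markers summed to 47.6 CPM against 82.8, nearly all cd22, with cd79a, cd79b and pax5 at 0. T cell markers summed to 17.8 CPM in both, with 70 of the 71 member UMIs from cd3eap, whose human relative is a subunit of RNA polymerase I, and thrombocyte markers summed to 14.8 against 133 with itga2b at 0. Eosinophil markers summed to 152 CPM against 146, almost all serpinb1l1 with epx at 0, kidney tubule markers to 6.51 and endothelial markers to 81.9 against 118 with cdh5 and pecam1 at 0. Of 10 NK markers 1 was detected. The mast cell or basophil list reached 24013 CPM against 16868, but shares cpa5 and srgn with the neutrophil list.

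A gene was called at a level at least 1.5-fold apart among genes with 100 or more UMIs over both populations. With 1 library no test between populations was possible and no p-value is given. The 95% intervals (exact Poisson for a level, exact binomial split for a ratio, Clopper-Pearson for a share) cover counting error only, and UMIs of one cell are not independent. Of 9202 genes compared with the other sorted cells, 300 (3.26%) were higher and 2274 (24.7%) lower in members. The median log2 ratio of all these genes was -0.234, and lists are read beside that value. Of the called genes 11.7% were higher, a share that was 34.6% when members were scaled by the median of ratios, which sets that median to 0.

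The growth arrest gene gadd45ga stood at 199 CPM in members (185 to 213), against 82.6 in the other sorted cells, a log2 ratio of 1.27 (1.15 to 1.38). Its level was 109 CPM in lyz-rich cells with mcm UMIs, 117 in cells with lyz at 4 to 8%, 158 in lyz-rich cells with mmp9 and 62.7 in cells with lyz under 1%. Members had the highest of these levels, but their interval overlapped that of the lyz-rich cells with mmp9. With cells thinned to the same depth, gadd45ga had a mean of 0.1653 UMIs per member and 0.1935 per lyz-rich cell with mmp9. The order of members and lyz-rich cells with mmp9 is therefore not settled. Of the family, gadd45ba reached 658 CPM (633 to 683) against 330.5, a log2 ratio of 0.99 (0.93 to 1.05). gadd45bb reached 65.9 CPM against 37.9, a log2 ratio of 0.80 (0.61 to 0.98). gadd45aa went the other way, at 26.8 CPM against 85.3, a log2 ratio of -1.67 (-1.96 to -1.39). Of 6 Gadd45 genes compared, 3 were thus higher and 1 lower, beside 3.26 and 24.7% of all genes, with a median of 0.38.

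The choline kinase gene chka stood at 48.8 CPM (42.2 to 56.2) against 24.04 in the other sorted cells, a log2 ratio of 1.02 (0.80 to 1.24), and at 30.6 CPM in lyz-rich cells with mcm UMIs and 35.1 in cells with lyz at 4 to 8%. Over the latter its log2 ratio was 0.48 (0.18 to 0.78), under the limit of 1.5-fold. Of 20 choline and phospholipid synthesis genes compared, chka was the 1 that was higher, beside 3.26% of all genes. The 3 lower, beside 24.7% of all genes, had log2 ratios of -0.68, -0.68 and -0.64. They were pisd, which makes phosphatidylethanolamine in mitochondria, lpin2, a phosphatidate phosphatase, and pcyt2, of the ethanolamine branch. The list median was -0.18, beside -0.234 for all genes.

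**Figure D2:**
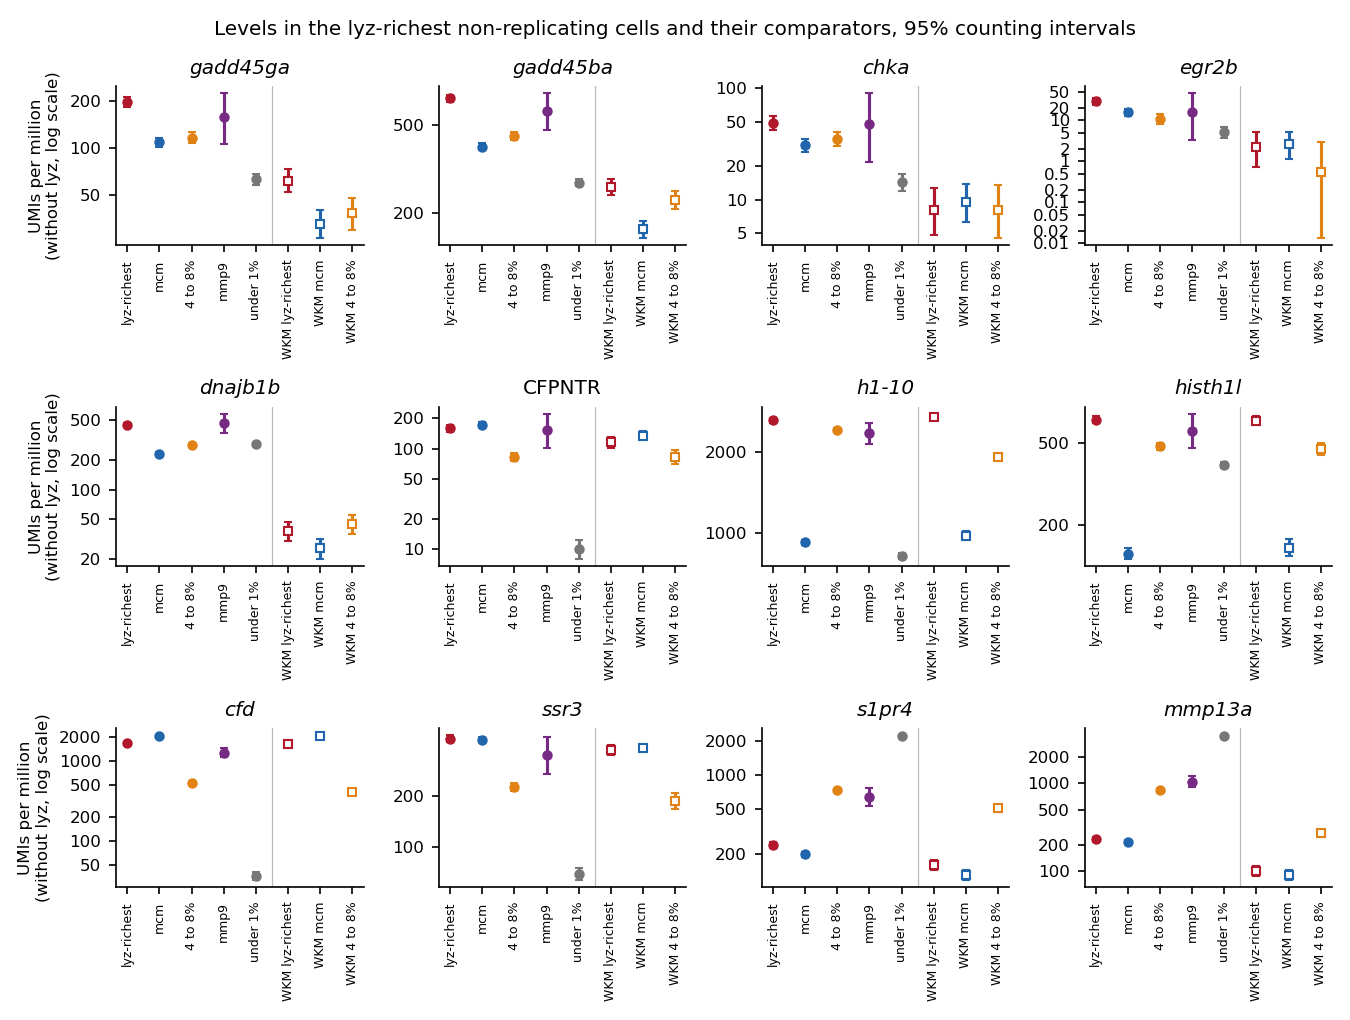
Levels of 12 genes (CPM of UMIs other than lyz, log axis) in members (lyz-richest) and in comparison populations of the sorted (filled circles) and the WKM library (open squares), with exact 95% Poisson intervals. gadd45ga, gadd45ba and chka have their highest levels in sorted members, with intervals that overlap those of the 31 lyz-rich cells with mmp9, and egr2b and dnajb1b are far higher in the sorted than in the WKM library.

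The 10 largest ratios over the other sorted cells belonged to genes of low level. adamtsl5, encoding a secreted ADAMTS-like protein, led at 6.26 CPM against 1.51 (log2 2.05, 1.34 to 2.72), followed by runx1t1, the corepressor known as ETO in human leukaemia (9.02 against 2.34 CPM), and slc25a18, a mitochondrial glutamate carrier (6.01 against 1.59 CPM). The early growth response factor egr2b had a log2 ratio of 1.91 (1.60 to 2.21), at 29.6 against 7.86 CPM, and its paralog egr2a 1.60. The ferritin-like fthl28, the branched-chain aminotransferase bcat1, the ATP-gated channel p2rx1, the mTORC1 inhibitor ddit4 and the calcineurin B-like chp2 followed, at 21.8, 12.8, 8.02, 7.26 and 18.0 CPM against 5.92, 3.85, 2.42, 2.28 and 5.88. None of the 10 largest had a UMI in more than 9.59% of members.

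Secretory genes lay above the median of all genes. Of 86 genes of ER folding and secretion 14 were higher and 2 lower, beside 3.26 and 24.7% of all genes. Their median log2 ratio was 0.20, and 63 of the 86 were above 0. ssr3, of the translocon-associated protein complex, stood at 431 CPM against 215 (log2 1.01, 0.93 to 1.08), and its partners ssr2 and ssr4 had log2 ratios of 0.88 and 0.85. sec61a1, the channel through which nascent proteins enter the ER, stood at 258 CPM against 132 (log2 0.96, 0.86 to 1.06). The chaperone hspa5 stood at 418 against 271 CPM (log2 0.63). Ribosomal protein genes were also shifted, by a median of 0.36 with 78 of 82 above 0, yet none reached 1.5-fold. The reporter CFPNTR, on which the sort was gated, stood at 159 CPM against 78.8 (log2 1.02, 0.89 to 1.14). Over lyz-rich cells with mcm UMIs its log2 ratio was -0.12. The other reporter, Citrine under mmp9 control, had 3 UMIs in 2 members.

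Granule genes were split. The median of 36 genes for granule and secreted neutrophil proteins was -0.24, close to the -0.234 of all genes. Of the 36, 4 were higher and 15 lower, beside 3.26 and 24.7% of all genes. The 4 were cpa5 at 7066 against 3488 CPM, cfd, the complement factor D protease, at 1683 against 887, acp5a, a tartrate-resistant acid phosphatase, at 57.9, and abcb9, a lysosomal peptide transporter, at 570.3. Among the lower were mmp13a, a collagenase, at 229 against 1378 CPM (log2 -2.59, -2.68 to -2.49, for the more abundant of 2 gene identifiers of this symbol, between which reads may have been divided), and lgals2a, a galectin, at 24.5 against 272 (log2 -3.47). Myeloperoxidase, mpx, did not reach 1.5-fold (3005 against 3067 CPM), nor did the C/EBP factor cebpa (1886 against 2246).

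Inflammation genes were lower in members more often than genes at large. Of 42 inflammation and survival genes none was higher and 19 were lower, beside 3.26 and 24.7% of all genes, with a median of -0.56. il1b, the cytokine interleukin 1 beta, stood at 456 against 1397 CPM (log2 -1.61, -1.68 to -1.55), and tnfb, a tumour necrosis factor, at 10.0 against 70.9. Of 39 migration and adhesion genes 8 were lower and 1 higher, with a median of -0.32, a share of lower genes under that of all genes compared. Among the 8, s1pr4, a sphingosine 1-phosphate receptor, stood at 242 against 965 CPM (log2 -1.99, -2.09 to -1.90) and cxcr1, a chemokine receptor, at 6.26 against 88.7 (log2 -3.82). The 1 that was higher was csf1rb, a paralog of the CSF1 receptor gene, at 29.6 against 11.8 CPM (log2 1.32, 1.02 to 1.61). Over lyz-rich cells with mcm UMIs csf1rb had a log2 ratio of 0.08, so the difference is not particular to members.

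Of 32 C/EBP and other myeloid transcription factor genes 3 were higher, mycb, mych and myb, at log2 ratios of 1.30, 0.98 and 0.84, and 11 were lower. Over all genes 3.26% were higher and 24.7% lower. cebpb, a factor of late granulopoiesis in mammals, stood at 1931 CPM against 4339 (log2 -1.17, -1.20 to -1.14). raraa, a retinoic acid receptor, and mxi1, a MAX partner that opposes MYC in mammals, had log2 ratios of -2.72 and -1.52. klf3, a Krüppel-like repressor, had 2 UMIs in all members. Of 7 NADPH oxidase genes 2 were lower, hvcn1 and ncf1, a share near the 24.7% of all genes. ncf1 stood at 2392 against 3812 CPM.

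Replication and mitosis genes outside the rule followed the excluded genes. Of 72 replication genes 63 were lower and none higher (median -1.95), and of 75 mitosis genes 68 were lower and none higher (median -2.72). orc6, of the origin recognition complex, and hmmr, a spindle protein, had 1 UMI each in all 855 members, and ccnb1, the mitotic cyclin B1, had a level of 1.75 CPM against 44.97. Because the rule removed cells with mcm, mki67 or top2a UMIs, these counts describe the selection.

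The remaining lists are read beside all genes compared, of which 3.26% were higher and 24.7% lower. Of 40 cytosolic heat shock chaperones 3 were higher and 3 lower (median -0.02), and of 29 AP-1, ATF and immediate early genes 2 were higher, egr2a and egr2b, and 2 lower (0.13). Antioxidant genes gave 5 higher and 8 lower of 35 (-0.05), cathepsins and proton pump subunits 2 and 4 of 43 (-0.09), glycolysis and glycogen genes 1 and 7 of 34 (-0.14), respiratory chain subunits 0 and 2 of 76 (-0.07), and cell cycle exit and p53 target genes 1 and 7 of 27 (-0.20). In the last list ccng2, an atypical cyclin, stood at 219.9 against 498 CPM.

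**Figure D3:**
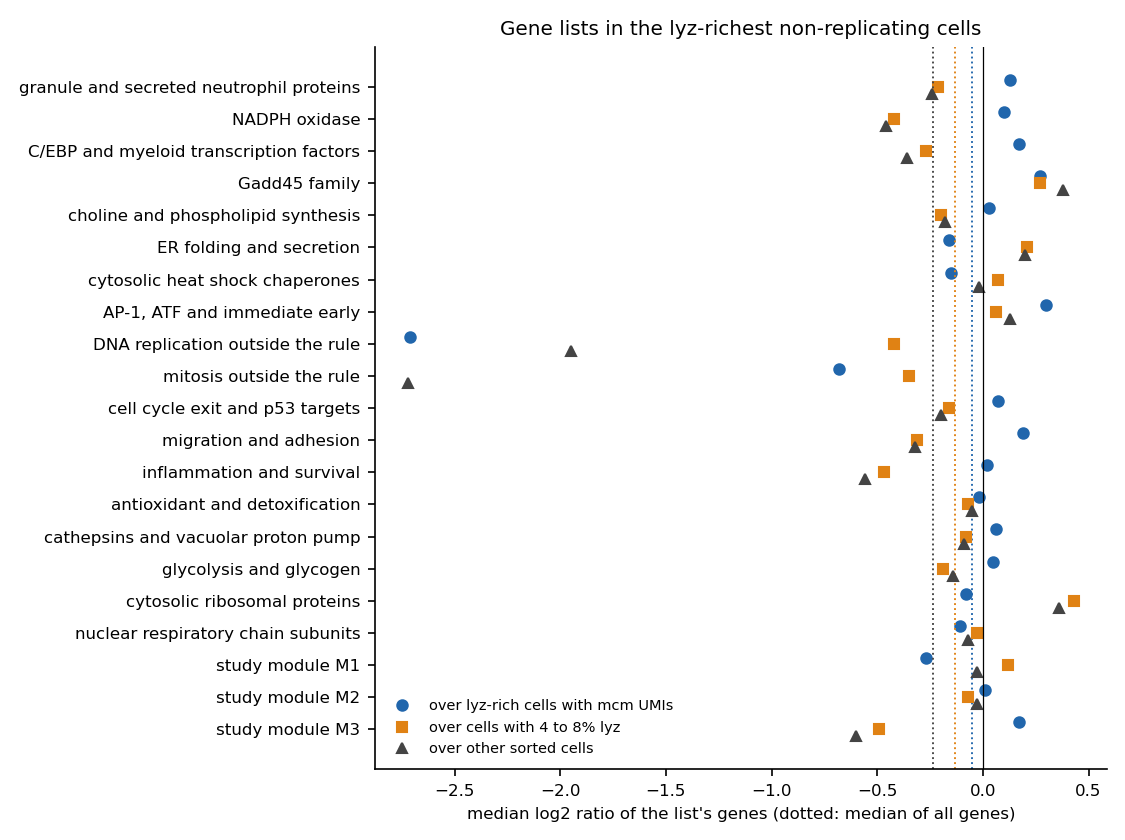
Median log2 ratio of members over the other sorted cells, over lyz-rich cells with mcm UMIs and over cells with lyz at 4 to 8%, for 21 gene lists. Dotted lines give the medians of all genes compared, -0.234, -0.051 and -0.134. ER genes lie to the right of the median of all genes against both populations with less lyz and to its left against lyz-rich cells with mcm UMIs.

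The lyz-rich comparison population was that of 1259 sorted cells with lyz at 8% or more that met every limit except that they had at least 1 UMI of an mcm gene of the rule. They were deeper (median 6909 UMIs) and had lyz at a median of 11.3%. Of 5889 genes compared, 204 (3.46%) were higher and 740 (12.6%) lower in members, with a median of -0.051. Few genes of the neutrophil and migration lists reached 1.5-fold. Of 35 migration genes and 7 NADPH oxidase genes none was called, and of 30 granule genes acp5a was the 1 called. Of 35 inflammation genes 3 were higher and 0 lower, beside 3.46 and 12.6% of all genes. Small shifts of single genes were mostly upward in the migration, NADPH oxidase and granule lists. Log2 ratios lay above 0 for 29 of the 35 migration, 5 of the 7 NADPH oxidase and 25 of the 30 granule genes. Summed levels were higher in members for the migration list (110898 against 93716 CPM) and the granule list (119505 against 115282). The NADPH oxidase list summed lower, at 4723 CPM (4655 to 4790) against 5021 (4972 to 5070), with ncf1 at a log2 ratio of -0.23. For inflammation genes 19 of 35 lay above 0, with a median of 0.02. mmp13a (229 against 214 CPM), s1pr4 (242 against 200.5) and cebpb (1931 against 1852) stood close in both.

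Linker histone genes were among the 3 largest ratios on the higher side among genes with 300 or more UMIs, and were singled out after their values were seen. histh1l, an H1-like histone, stood at 654 CPM (629 to 679) against 144, a log2 ratio of 2.18 (2.08 to 2.28). h1-10, the H1.10 linker histone, stood at 2636 CPM (2585 to 2686) against 920.0 (log2 1.52, 1.48 to 1.56), and hmgn2, which binds nucleosomes, at 6668 against 3561 (0.91, 0.88 to 0.93). Histone genes have near copies, so the assignment of their reads is uncertain.

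Stress genes came next. hsp90aa1.2, an inducible cytosolic HSP90, stood at 447 CPM (426 to 468) against 166 in lyz-rich cells with mcm UMIs (log2 1.43, 1.33 to 1.54) and dnajb1b, an HSP40 co-chaperone, at 446 against 228 (0.97, 0.88 to 1.07). The HSP70 genes hsp70l, hsp70.2 and hsp70.3, near-identical copies whose reads may be exchanged, had log2 ratios of 1.37, 1.24 and 1.21. Of all genes in this comparison 3.46% were higher and 12.6% lower. Of 33 genes of the cytosolic chaperone list 6 were higher and 5 lower. The lower ones included hspd1 and hspe1, which encode the mitochondrial chaperonin. Of 26 AP-1, ATF and immediate early genes 5 were higher, egr2b, zfp36l1b, egr2a, atf3 and fosl2, and 1, fosb, lower, with a median of 0.30. gadd45ga had a log2 ratio of 0.86, gadd45ba 0.72 (0.65 to 0.80) and chka 0.67 (0.40 to 0.95).

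Of 64 replication genes compared 63 were lower, with a median of -2.71, among 740 lower genes in all. hells, a chromatin remodelling helicase, had the lowest ratio of genes with 300 or more UMIs, at 2.25 against 85.6 CPM (log2 -5.25), followed by cdca7a (-4.68), tyms, the thymidylate synthase gene (-4.25), and gins2 (-3.97). As mcm UMIs defined both populations, this too describes the selection. Of 30 genes of the mitosis list 16 were lower. The 1 that was higher was hmgn2, a nucleosome-binding protein on that list, which gave 26619 of its 43159 UMIs in members. ER genes gave 1 higher (ddit3) and 6 lower of 81, beside 3.46 and 12.6% of all genes. Their median was -0.16, beside -0.051 for all genes. Creatine kinase ckbb stood at 172 CPM against 258 (log2 -0.59), cfd at 1683 against 2060 (-0.29) and hspa5 at 418 against 478 (-0.19). The medians of the other lists were 0.27 for Gadd45, 0.17 for transcription factors, 0.13 for granule genes, 0.10 for NADPH oxidase, 0.19 for migration, 0.03 for choline and phospholipid genes, 0.07 for cell cycle exit, 0.02 for inflammation, -0.02 for antioxidants, 0.06 for cathepsins and proton pump, 0.05 for glycolysis, -0.15 for cytosolic chaperones, -0.08 for ribosomal proteins and -0.11 for the respiratory chain.

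Against the 1939 sorted cells that met all limits but had lyz at 4 to 8% (median 2593 UMIs), 154 of 5190 genes (2.97%) were higher in members and 493 (9.50%) lower, with a median of -0.134. Of the called genes 23.8% were higher, against 52.3% under the median of ratios and 12.6% when lyz was kept in the total. The leading higher genes with 300 or more UMIs, named after their values were seen, were ckbb at 172 CPM (159 to 185) against 39.4 (log2 2.12), cfd at 1683 against 536 (1.65, 1.59 to 1.71), the sulfotransferase gene sult2st2 at 57.6 against 21.4 (1.43), ascc1 at 85.4 against 32.3 (1.40), skap1 at 58.4 against 26.3 (1.15) and ryr3, a ryanodine receptor calcium channel, at 102 against 47.3 (1.11). The low-level fthl28 had a larger ratio, 21.8 against 3.19 CPM (2.77, 2.01 to 3.62). Over lyz-rich cells with mcm UMIs, ryr3 had a log2 ratio of 0.07. Of 74 ER genes 14 were higher and none lower, with a median of 0.21, and ssr3 and sec61a1 had log2 ratios of 0.94 and 0.88. Ribosomal protein genes had a median of 0.43, with 7 of 80 called higher.

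On the lower side stood tcnbb, a vitamin B12 binding protein, at 20.5 against 111 CPM (log2 -2.43), cxcr1 (-2.36), lgals2a (-1.96), mmp13a (-1.85, -1.96 to -1.75), s1pr4 (-1.60) and il1b (-1.31). Of all genes in this comparison 2.97% were higher and 9.50% lower. Of 34 inflammation genes 14 were lower and none higher (median -0.47). Of 36 migration genes 7 were lower and 1, csf1rb, higher (-0.31). Of 31 granule genes 12 were lower and 2, cfd and cpa5, higher (-0.21). cebpb stood at 1931 against 3832 CPM (-0.99). gadd45ga had a log2 ratio of 0.77 (0.61 to 0.92), gadd45ba 0.56 (0.48 to 0.65), egr2b 1.44 (0.98 to 1.92) and dnajb1b 0.65 (0.55 to 0.75). The medians of the other lists were 0.27 for Gadd45, -0.42 for NADPH oxidase, -0.27 for transcription factors, -0.20 for choline and phospholipid genes, 0.07 for cytosolic chaperones, 0.06 for AP-1 and immediate early genes, -0.42 for replication, -0.35 for mitosis, -0.16 for cell cycle exit, -0.07 for antioxidants, -0.08 for cathepsins and proton pump, -0.19 for glycolysis and -0.03 for the respiratory chain.

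Lyz-rich cells that met all limits but had 3 or more mmp9 UMIs numbered 31, of which Scrublet called 61.3% (42.2 to 78.2) as doublets. Of 3162 genes compared 374 (11.8%) were higher in members and 359 (11.4%) lower. Over all 3162 genes, called or not, the interval lay above 0 for 141 and below 0 for 247. gadd45ga stood at 199 CPM in members against 158, and chka at 48.8 against 47.5.

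The study sorted the genes that vary along maturation into an early (M1), an intermediate (M2) and a late (M3) module, derived from these same cells, so the counts that follow are not independent evidence of a direction. Against the other sorted cells 3.26% of all genes were higher and 24.7% lower (median -0.234). Of 576 M1 genes 44 were higher and 101 lower (median -0.03), and of 407 M2 genes 20 and 45 (-0.03). Of 503 M3 genes 3 were higher and 258 lower (-0.60). Against cells with lyz at 4 to 8% the medians were 0.12, -0.07 and -0.49, beside -0.134 for all genes. Against lyz-rich cells with mcm UMIs they were -0.27, 0.01 and 0.17, beside -0.051 for all genes.

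Members were then divided by lyz share into bands of 8 to 10, 10 to 12, 12 to 15 and 15% or more, with 330, 233, 202 and 90 cells. Median depth was 4420, 5185, 5674 and 6665 UMIs, so that depth and lyz share cannot be told apart here. gadd45ga stood at 146, 207, 231 and 260 CPM in the bands from low to high lyz, 1.78 times as high in the last as in the first. Outside the rule it stood at 102 CPM in cells with lyz at 4 to 6% and 141 at 6 to 8%, so the level just outside the limit was close to that just inside. chka stood at 32.8, 44.9, 64.1 and 70.5 CPM, with overlapping intervals between neighbouring bands (23.9 to 43.8, 33.2 to 59.3, 49.6 to 81.5 and 49.1 to 98.0).

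Several of the genes that were higher over cells with lyz at 4 to 8% had the same order. cfd stood at 967, 1683, 2122 and 2755 CPM, ckbb at 114, 174, 207 and 254, sult2st2 at 29.1, 47.6, 69.9 and 133, and sec61a1 at 182, 266, 306 and 350.4. The ER list as a whole had no order (1.02 times as high in the last band as in the first), nor had the granule list (0.946 times) or hspa5 and hsp90b1. histh1l stood at 539.5 CPM in the first band and 959 in the last, whereas h1-10 had no order, at 2663, 2536, 2520 and 3016. Other genes ran the other way. s1pr4 stood at 368, 242, 160.2 and 64.4 CPM, il1b at 629, 495, 315 and 187, mmp13a at 339 to 92.6, cebpb at 2599 to 1063 and txn, the thioredoxin gene, at 307 to 76.5. Of 58 named genes outside the rule with 100 or more UMIs in members, 18 had a higher level in each successive band, 13 a lower level in each, and 27 neither. Many were named for their ratios over the other sorted cells or cells with lyz at 4 to 8%, so an order was favoured in advance. The share over all genes was not computed, so these counts have no background. Ribosomal protein genes summed to 210530 CPM in the first band and 269812 in the last, M1 genes to 148919 and 172520, and M3 genes to 371362 and 298979.

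**Figure D4:**
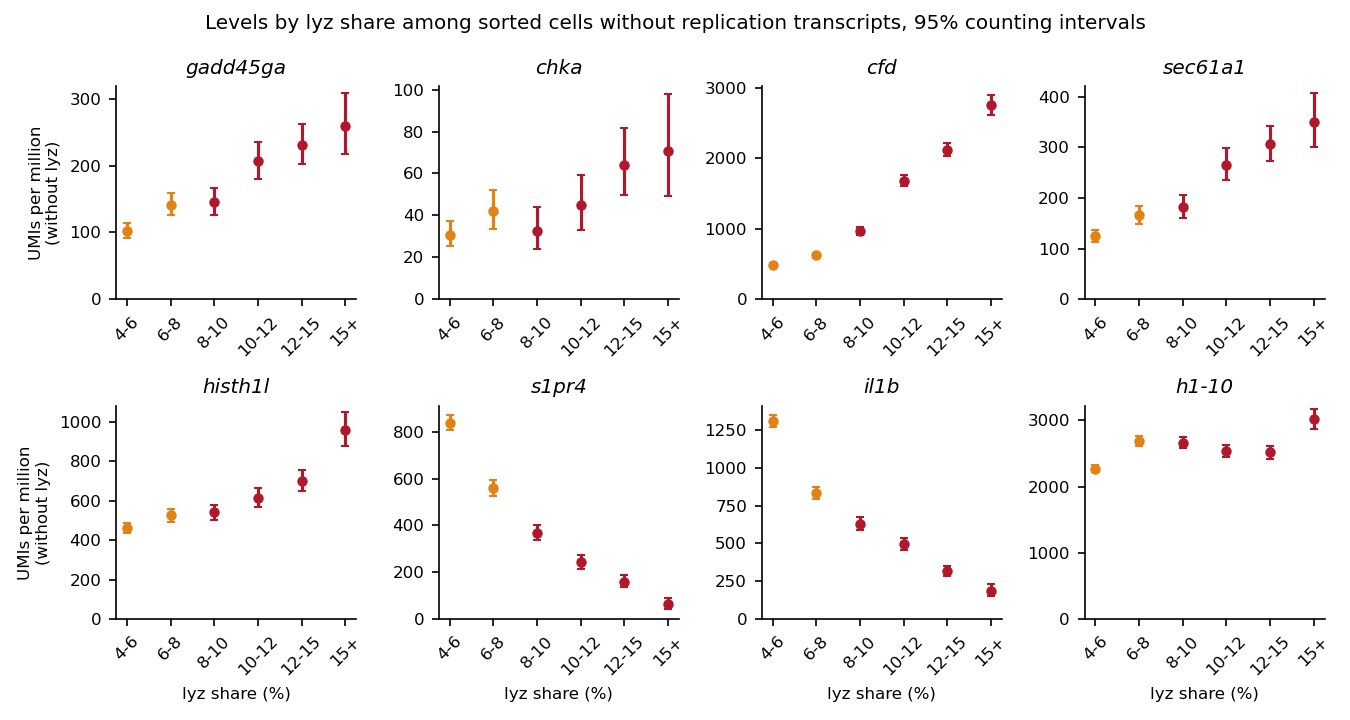
Levels of 8 genes (CPM of UMIs other than lyz, exact 95% Poisson intervals) by lyz share. Red points are the bands of members from 8% lyz, orange points the bands outside the rule, at 4 to 6 and 6 to 8%. gadd45ga, chka, cfd, sec61a1 and histh1l are higher and s1pr4 and il1b lower in each successive band of members, while h1-10 has no order.

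Single cells showed how the marker genes were spread. After thinning each cell to 1000 UMIs, which left out 2 members, gadd45ga had a UMI in 14.2% of members (121 of 853, 11.9 to 16.7), against 7.23% of the other sorted cells, 9.06% of lyz-rich cells with mcm UMIs, 8.60% of cells with lyz at 4 to 8% and 5.96% of cells with lyz under 1%. The thinning left out 121 of the other sorted cells, 1 of the cells with mcm UMIs, 20 of those with lyz at 4 to 8% and 31 of those with lyz under 1%. At full depth the shares were 48.2, 18.3, 40.4, 21.2 and 9.92%. Members did not stand above the 31 lyz-rich cells with mmp9 at 1000 UMIs, where the mean was 0.1653 gadd45ga UMIs per member and 0.1935 per cell with mmp9. Of WKM cells with over 50% globin UMIs, which should lack the gene, 0.357% had a gadd45ga UMI at 1000 UMIs (561 cells, median depth 7162 UMIs) and 1.43% at full depth. This share cannot serve as a background for the sorted library. The cells belong to the other library, in which gadd45ga was lower, and globin took most of their UMIs. chka had a UMI in 4.46% of thinned members (3.17 to 6.06, 19.1% at full depth) against 2.33% of the other sorted cells (6.54% at full depth). Its share in the globin-rich WKM cells was 0.178%, with the same limit.

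Among members with a gadd45ga UMI at 1000 UMIs, 10.7% also had a chka UMI (13 of 121, 5.85 to 17.7), against 3.42% of members without (25 of 732, 2.22 to 5.001). In lyz-rich cells with mcm UMIs the corresponding shares were 2.63% (3 of 114) and 2.71%. At full depth both populations had more chka beside gadd45ga, at 26.0 and 12.6% of members with and without gadd45ga, and 24.4 and 9.72% of lyz-rich cells with mcm UMIs. gadd45ba was present in 52.9% of members with and 34.3% of members without gadd45ga at 1000 UMIs, against 33.3 and 26.9% of lyz-rich cells with mcm UMIs and 43.0 and 31.1% of cells with lyz at 4 to 8%. Outside the members, the gadd45ba intervals at 1000 UMIs lay apart in cells with lyz at 4 to 8% (35.4 to 51.0 and 28.9 to 33.3%). They overlapped in lyz-rich cells with mcm UMIs (24.8 to 42.8 and 24.4 to 29.6%). For chka in cells with lyz at 4 to 8%, the shares were 4.85 and 3.71%, with overlapping intervals. At full depth, the depth of a cell and joint presence cannot be told apart.

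The gene that varied most between members was hmgn2, outside the rule. At 2000 UMIs per cell (799 members) its variance was 22.3 times its mean, against a median ratio of 1.01 over 2816 genes, and 40 genes had a ratio of 2 or more, among them lect2l, actb2, icn, h1-10, tmsb1, il1b and cfd. Limits of 8 and 4 hmgn2 UMIs per 1000 UMIs of genes other than lyz were set after this distribution was seen. They gave 231 hmgn2-rich members (27.0%, 24.1 to 30.1), 566 hmgn2-poor members and 58 between. The rich share was 11.3% (9.58 to 13.2) in lyz-rich cells with mcm UMIs and 42.6% (40.4 to 44.8) in cells with lyz at 4 to 8%, against 12.7% (10.2 to 15.6) of such cells in the WKM library. Across the member bands of lyz it was 24.9, 28.8, 25.3 and 34.4%, with overlapping intervals.

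**Figure D5:**
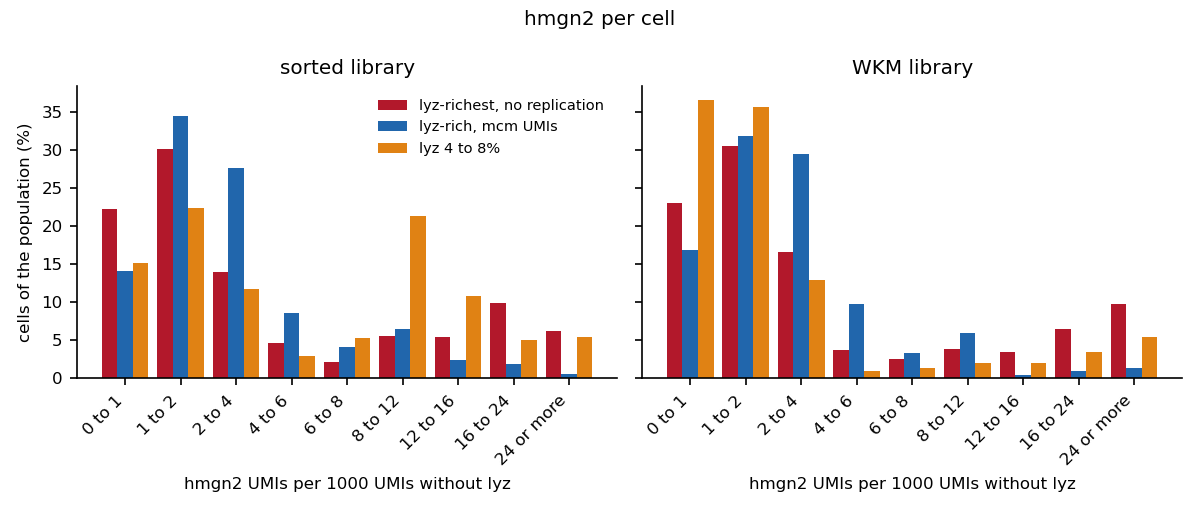
Share of cells (%) by hmgn2 UMIs per 1000 UMIs of genes other than lyz, for members, lyz-rich cells with mcm UMIs and cells with lyz at 4 to 8%, in the sorted and in the WKM library. Among members 27.0% of sorted and 23.6% of WKM cells lie at 8 or more, against 11.3 and 8.75% of lyz-rich cells with mcm UMIs.

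The hmgn2-rich and hmgn2-poor members had similar lyz shares (medians 11.04 and 10.6%) and doublet calls (5.20 and 6.01%), and median depths of 5843 and 4882 UMIs. As the split was chosen on these cells, their differences are descriptions. Of 2885 genes 239 (8.28%) were higher and 208 (7.21%) lower in rich cells. Chromatin genes led. hmgb2b, an HMG box protein, stood at 503 against 42.4 CPM (log2 3.57), h2az2b, a histone H2A.Z, at 1239 against 204 (2.61), hmga1a at 687 against 229.6 (1.58), h1-10 at 4646 against 1720 (1.43, 1.38 to 1.49) and histh1l at 1024 against 496 (1.05).

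Of 63 genes of ER folding and secretion 25 were higher in hmgn2-rich members and 1 lower, with a median of 0.51. The higher ones included chaperones, whereas the translocon genes ssr3 and sec61a1 had log2 ratios of 0.11 and 0.10. calr, the calcium-binding chaperone calreticulin, stood at 81.0 against 18.1 CPM (log2 2.17), hyou1 at 131 against 34.5 (1.93), hsp90b1, the ER HSP90, at 324 against 105 (1.63) and hspa5 at 600.4 against 327 (0.88). Of 13 mitosis genes 6 were higher and none lower. stmn1a, a tubulin-binding phosphoprotein, had 84 UMIs in 22 rich cells, of which the top cell held 26.2%, and cdk1, the mitotic kinase, had 35 UMIs in 13 rich cells. pcna, the sliding clamp of replication, stood at 173 against 92.2 CPM, with 87 of the 231 rich members having a UMI of mcm4, mcm7 or pcna. mpx stood at 3698 against 2663 CPM and ckbb at 290.0 against 114.

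The Gadd45 genes and chka lay on the other side. gadd45ga stood at 139 CPM in hmgn2-rich and 228 in hmgn2-poor members (log2 -0.72), gadd45ba at 485 and 751 (-0.63, -0.77 to -0.49) and chka at 33.3 and 57.3 (-0.78). Under some alternatives these ratios were less than 1.5-fold, down to -0.58 for gadd45ga, -0.49 for gadd45ba and -0.57 for chka. s1pr4 stood at 132 and 290.4 CPM (-1.14), ddx21, a nucleolar helicase, at 93.8 and 223 (-1.25) and ier2b, an immediate early gene, at 159 and 328 (-1.05). Of 6 Gadd45 genes 3 were lower, of 21 AP-1 and immediate early genes 6, and of 22 inflammation genes 6, with none higher. Of all genes 7.21% were lower. In WKM cells of the same rule, 109 of all 1656 genes compared were higher and 103 lower. Of 3 Gadd45 genes there 2 were lower, and of 9 AP-1 and immediate early genes 2. Of 13 inflammation genes there, 1 was higher and 1 lower, with a median of -0.08. In the sorted library the cytosolic chaperone list gave 1 higher and 1 lower of 27, with a median of -0.06. With hmgn2-poor cells alone on both sides, gadd45ga kept log2 ratios of 1.38 over the other sorted cells, 0.96 over lyz-rich cells with mcm UMIs and 0.72 over cells with lyz at 4 to 8%, while h1-10 had 0.97, 1.24 and 0.23.

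In the WKM library the same rule found 512 of 8313 passing cells (6.16%, 5.65 to 6.70), with a median of 4726 UMIs and lyz at 11.1%. These cells were not used to choose the sorted members, though they come from the same fish. The levels of some genes stood close in both libraries. cfd was at 1620 CPM in WKM and 1683 in sorted members, h1-10 at 2710 and 2636, histh1l at 645 and 654, ckbb at 169.6 and 172, and cebpb at 1928 and 1931. The ER list did not, with a summed 8068 CPM (7951 to 8187) in WKM and 10091 (9993 to 10190.0) in sorted members.

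Within the WKM library the ratios of several such genes had the same direction as in the sorted one. Over WKM cells with lyz at 4 to 8%, cfd had a log2 ratio of 1.99, ckbb 2.29, ssr3 0.99, sec61a1 0.73, mmp13a -1.43 and s1pr4 -1.67, beside 1.65, 2.12, 0.94, 0.88, -1.85 and -1.60 in the sorted library. Over WKM lyz-rich cells with mcm UMIs histh1l had 2.07 and h1-10 1.47, beside 2.18 and 1.52. hmgn2-rich cells made up 23.6% (20.02 to 27.6) of the 512 cells and 8.75% of WKM lyz-rich cells with mcm UMIs, and had log2 ratios over hmgn2-poor cells of 3.06 for hmgb2b, 2.72 for h2az2b, 1.60 for h1-10 and -0.88 for gadd45ba.

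Stress and marker genes differed between the libraries. In WKM members gadd45ga stood at 61.6 CPM (51.7 to 72.9), chka at 8.10 (4.799 to 12.8), gadd45ba at 262 (241 to 284), egr2b at 2.25 (0.730 to 5.25), dnajb1b at 38.2 (30.5 to 47.3), hsp90aa1.2 at 8.55 (5.15 to 13.4) and rsrp1, a splicing-related protein, at 54.4 (45.2 to 65.0). In sorted members rsrp1 stood at 685 CPM (659.9 to 712), and none of these 7 levels had an interval that overlapped its WKM counterpart. Within the WKM library gadd45ga kept its order, with log2 ratios of 0.70 over cells with lyz at 4 to 8% and 0.92 over lyz-rich cells with mcm UMIs. chka had -0.00 and -0.23 there, on 18 UMIs in members. Over WKM lyz-rich cells with mcm UMIs, 1 of 23 cytosolic chaperone genes was higher and 3 lower, with a median of -0.26. Of 16 AP-1, ATF and immediate early genes there 3 were higher and 3 lower (-0.11). Of all 3439 genes in this comparison 126 were higher and 380 lower (median -0.030). The whole chaperone list summed to 9743 CPM in WKM members against 10882, beside 13671 against 12960 in the sorted library. The libraries differ in the sort by LysC:CFP, in the other cells present and in being separate preparations, and these cannot be told apart.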

How the data were processed

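Counts were deposited by the authors as raw UMI matrices per library, made with Cell Ranger 3.1.0 on a GRCz11 transcriptome with Citrine and CFPNTR added (Chromium 3' v3.1 kit). Seurat 4.0.2 is also named in the submitters' processing notes. Cells were not mapped to fish or gate, so each library was 1 sample and no test between conditions was run. Pooled UMIs of each population were divided by its UMIs of genes other than lyz. Genes with 100 or more UMIs over both populations were compared, and a difference of 1.5-fold was called. Thinning drew 1000 UMIs per cell without replacement. Ratios and calls were tried on simulated independent Poisson counts with known folds. Such counts leave out the dependence of UMIs within a cell, so its effect on the intervals was not tested.

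The text names gadd45ga, chka and the rule genes, the 10 largest and smallest ratios over the other sorted cells, and up to 4 called genes of each list. Other genes were added after their values were seen. One gene that the rule names is not reported here. Members and lists were chosen with earlier results of these data known. Alternatives to the limits, depth, doublets, scaling, cell weight and gene filter were computed. Scrublet ran in scanpy 1.11.5 with an expected rate of 10%, under Python 3.11.15, numpy 2.4.6, scipy 1.17.1 and pandas 2.3.3. Symbols came from the deposited gene tables.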

Additional observations from a re-analysis of the deposited data

Results flagged for a closer look

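For the results that follow, the ratio had opposite signs in the sorted and the WKM library with both counting intervals clear of 0, and the difference was not tested. Over cells with lyz at 4 to 8%, ctsla, a cathepsin L gene, had a log2 ratio of 1.72 (1.04 to 2.43) in sorted members and a negative one (-2.03 to -0.02) in WKM cells of the same rule. hmgn2 had -0.15 (-0.18 to -0.13) in the sorted and 0.45 (0.41 to 0.49) in the WKM library, and mpx had -0.06 (-0.09 to -0.02) and 0.10 (0.04 to 0.17). Between hmgn2-rich and hmgn2-poor members, ncf1 had -0.12 (-0.19 to -0.06) in the sorted and 0.16 (0.05 to 0.27) in the WKM library. il1b had -0.54 (-0.71 to -0.38) and 0.79 (0.38 to 1.19), the latter with UMIs in 17 WKM hmgn2-rich cells. The metallothionein gene mt2 had -1.74 (-2.59 to -0.98) and 3.18 (2.29 to 4.16), and a single cell held 97.8% of its UMIs in WKM hmgn2-rich cells and 75% in the sorted ones.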

How the results depend on the processing

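The number of members moved with the rule, to 1451 with lyz from 6%, 525 with lyz from 10% and 518 without UMIs of mcm4, mcm7 or pcna. Counts of genes higher than in the other sorted cells were 187 with lyz from 6%, 771 under the median of ratios, 504 with equal weight per cell and 612 from 20 UMIs, and genes lower were 1459 under the median of ratios. From 20 UMIs, 574 genes were higher and 1620 lower than in lyz-rich cells with mcm UMIs, 488 and 1221 than in cells with lyz at 4 to 8%, and 1051 and 1306 than in lyz-rich cells with mmp9. Under the median of ratios 321 genes were higher and 293 lower than in cells with lyz at 4 to 8%. Over lyz-rich cells with mmp9 the counts were 594 and 619 without called doublets and 173 and 189 without mcm4, mcm7 or pcna UMIs, which also gave 157 higher and 134 lower in hmgn2-rich members. With 0 mmp9 UMIs required of members, the comparison with that population was not run. gadd45ga had a UMI in 26.2% of members at 2000 UMIs and 48.2% not thinned, and chka in 8.64% and 19.1%. Of 862 values of 72 genes, 171 moved beyond their interval and none changed the sign of a called value.

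Over all these alternatives gadd45ga kept a log2 ratio of at least 1.16 over the other sorted cells, 0.76 over lyz-rich cells with mcm UMIs and 0.62 over cells with lyz at 4 to 8%. chka over the last had 0.38 to 0.71, on either side of 1.5-fold. Over the other sorted cells cfd had 0.57 to 1.66 and ckbb 0.36 to 1.65, also on either side. In hmgn2-rich over hmgn2-poor members the same held for gadd45ga (-0.86 to -0.58), gadd45ba (-0.75 to -0.49), gadd45bb (-1.08 to -0.49) and chka (-0.88 to -0.57). The alternatives on hmgn2, depth in hmgn2-rich members, doublets, cell weight, median of ratios and the wider set of replication genes were chosen after seeing the data. No paired analysis was possible because each condition was 1 library, and no library could be left out. The limits are those of 2 fish pooled in 1 library each, with no replicate, of an mcm limit that shallow cells passed more often, and of genes under about 100 UMIs, whose ratios have wide counting intervals.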
